A study of Homo sapiens with 3 samples.

Results

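In DAMI leukaemic cells, 2558 HMGA1 peaks called over input DNA each overlapped 2 separate HMGA1 peaks when the same reads were called over histone H3. These split input peaks were selected on measured values, namely the calls over H3 and the width of the call over input. They were rows of the input list on chromosomes 1 to 22 that were narrower than 1000 bp and shared at least 1 bp with 2 or more rows of the H3 list. They made up 0.685% of the 373677 autosomal input-list rows below that width, out of 385953 input-list rows in all. Every one of the 2558 overlapped exactly 2 H3-list rows. Peaks of equal width that overlapped exactly 1 H3-list row served as the comparison and are called single peaks here. There were 37612 of them at the widths that split peaks had, and each width was weighted to the number of split peaks of that width.

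The series holds a chromatin immunoprecipitation of HMGA1, one of histone H3 and an input DNA without antibody, each as 1 library from sonicated nuclei of DAMI cells. DAMI is an established leukaemic line, for which the labels give MPN/AML as disease state and no genotype or treatment. The H3 list and the input list are both lists of HMGA1 peaks and differ in the control they were called against. Both lists rest on the same HMGA1 reads as the values that chose the members. Each fold and q-value is the one the authors deposited. The HMGA1 reads and control levels at summits were recovered from them. A control level is the background term of the fold and not a count of control reads at the summit. The H3-list folds rest on HMGA1 reads multiplied by 0.787 to meet the depth of the H3 library. All comparisons below are therefore descriptions without a test, and the 95% Wilson intervals cover counting error only.

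HMGA1 is a small architectural protein whose AT-hooks hold the minor groove of AT-rich DNA. It binds both naked DNA and nucleosomes and competes with linker histone H1 for the DNA between nucleosomes. Histone H3 is part of the nucleosome core, so an H3 control follows nucleosomal DNA, while input DNA follows how much of a region enters a library. A nucleosome core wraps about 150 bp, and neighbouring nucleosomes repeat about every 200 bp. The summits described here are maxima of HMGA1 reads and not nucleosome centres, since H3 entered the H3 list only as the control level.

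In the strongest split input peaks the H3-list summits differed in HMGA1 reads, as they did in all but 108 of the 2558 split peaks. The peak with the highest q-value score lay on hg19 chromosome 9 from 45710744 to 45711662. It was 15.6-fold over input with 74 HMGA1 reads at its summit, and its H3-list summits lay 400 bp apart with 28 reads at the left one and 74 at the right one. At the right H3-list summit the fold over H3 was 5.92 and the H3 control stood at 4.11 times its genome-wide floor, whereas the input control at the input-list summit was 1.37 times its own floor. The second peak, on chromosome 12 from 120459554 to 120460451, was 15.6-fold over input, with H3-list summits of 70 and 26 reads spaced 530 bp apart. Here the higher summit was strong over either control, at 14.5-fold over H3. A chromosome 19 peak from 57621579 to 57622335 had the highest fold of all split peaks, 15.6-fold over input with the input control at its floor. Its H3-list summits held 29 and 58 reads and lay 452 bp apart, and the right one was 6.66-fold over H3 at an H3 control of 2.74 times the floor. The chromosome 9 and chromosome 19 sites thus had far lower folds over H3 than over input within 27 bp of the same position, by more than the scaling of 0.787 alone gives.

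**Figure D1:**
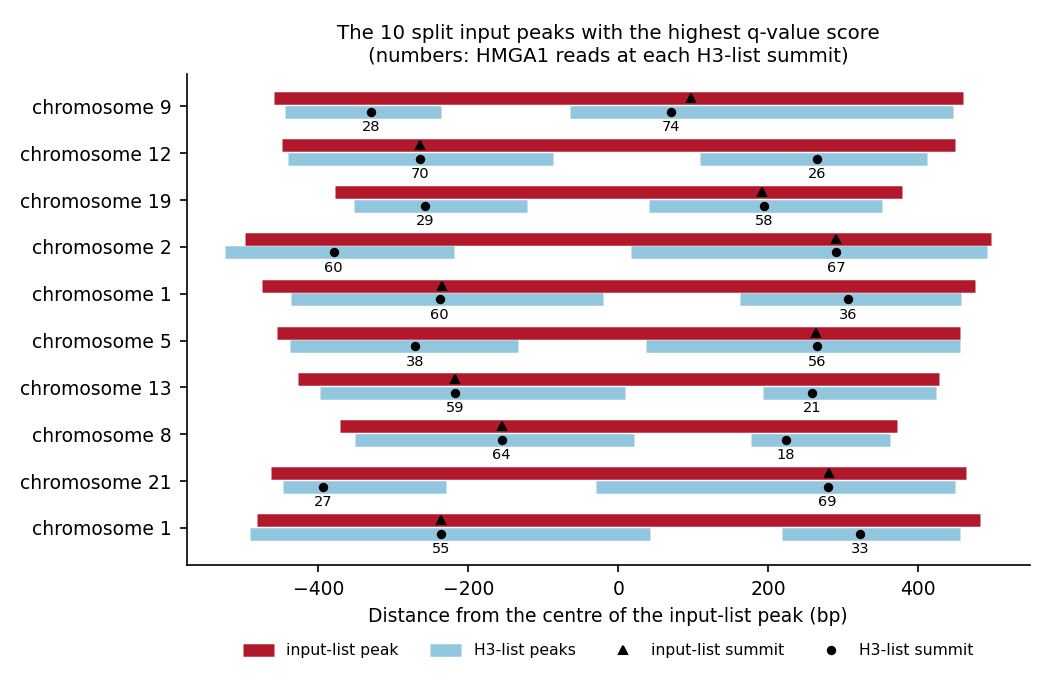
The 10 split input peaks with the highest q-value score, drawn to scale by distance in bp from the centre of the input-list peak, with the H3-list peaks under each and the HMGA1 reads printed at each H3-list summit. In 9 of the 10 the input-list summit stands within 3 bp of the H3-list summit with more reads, and on chromosome 9 it lies 27 bp away.

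The remaining leading peaks had the same double form, which the rule sets. On chromosome 2 from 90489618 to 90490613 the summits were nearly level, with 60 and 67 reads 670 bp apart, and the input-list fold was 12.02. The peaks on chromosome 1 from 97161747 to 97162697 and on chromosome 5 from 23070789 to 23071700 were 13.8-fold and 15.1-fold over input. Their H3-list summits held 60 and 36 reads at 544 bp on chromosome 1, and 38 and 56 reads at 537 bp on chromosome 5. On chromosome 13 from 93853179 to 93854034 one summit dominated, with 59 reads against 21 at a distance of 476 bp. The imbalance was larger on chromosome 8 from 39489421 to 39490164, where the summits held 64 and 18 reads and lay 379 bp apart. Chromosome 21 from 25754439 to 25755365 had 27 and 69 reads 673 bp apart, and chromosome 1 from 238659008 to 238659972 had 55 and 33 reads 558 bp apart. Gene context, sequence and base composition of these hg19 intervals were not analysed here.

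The H3-list summits of a split input peak lay a median of 472 bp apart (95% interval of the median 467 to 477), with quartiles of 419 and 544 bp. That distance is 2.36 times a repeat of 200 bp. No pair was spaced by 200 bp or less, 433 pairs (16.9%) by less than 400 bp, 1783 (69.7%) by 400 to 599 bp, and 342 (13.4%) by 600 bp or more. The distribution had a single maximum. It held 319 pairs at 350 to 399 bp, 573 at 400 to 449 bp, 558 at 450 to 499 bp, 386 at 500 to 549 bp and 266 at 550 to 599 bp. Pairs within 25 bp of 400 bp made up 18.2% (16.8 to 19.8), and pairs within 25 bp of 500 bp, which lies halfway between multiples of the repeat, made up 18.4% (16.9 to 19.9). Within 25 bp of 600 bp the share was 8.60% (7.58 to 9.75). The counts thus rose and fell smoothly across these distances, with no separate maxima at 400 and 600 bp.

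Peak calling bounded the spacing from below, so short distances of about 1 nucleosome could hardly be seen. The narrowest row in either list was 187 bp wide and no neighbouring rows in a list lay closer than 151 bp, which together make 338 bp for a pair of the narrowest rows with central summits. Only 77 pairs (3.01%) were spaced below 338 bp. The gap between the H3-list rows of a split peak ran from 151 to 542 bp with a median of 188 bp, and 1611 pairs (62.98%) had a gap of at most 200 bp. The rest of the spacing came from the inner arms, the distances from each summit to the edge facing the gap. Inner arms had a median of 135 bp, close to the 133 bp of the outer arms.

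**Figure D2:**
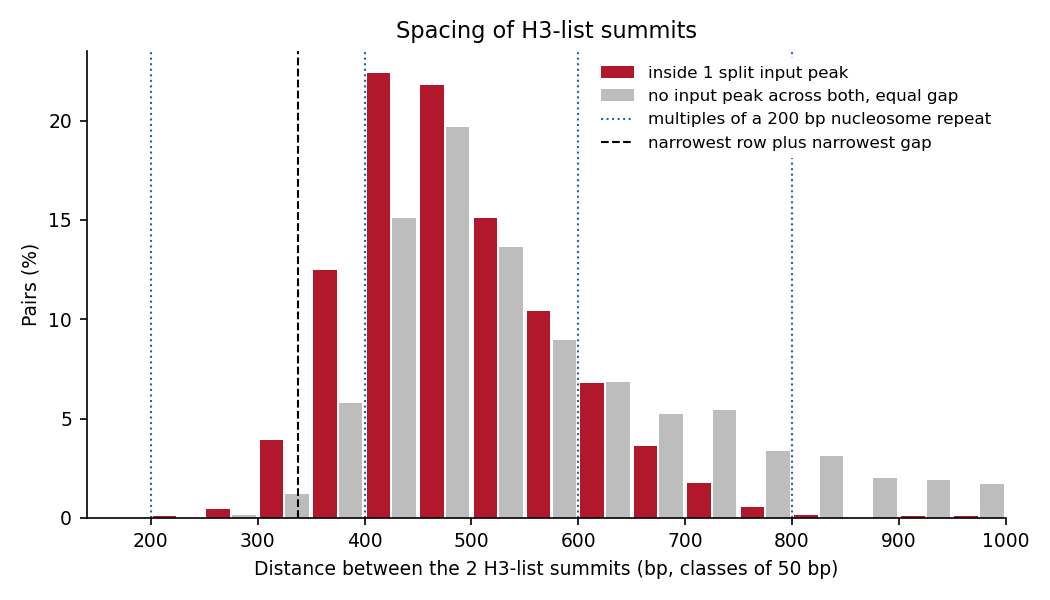
Share of pairs (vertical axis, percent) by distance between neighbouring H3-list summits in bp, in classes of 50 bp, for pairs inside a split input peak and for pairs with no single input-list peak across both, weighted to equal gaps. Dotted lines mark multiples of a 200 bp repeat and the dashed line 338 bp, pairs beyond 1000 bp are not drawn, and split pairs have 1 maximum, at 400 to 449 bp.

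Neighbouring H3-list peaks without a common input-list peak were spaced more widely. There were 24690 such pairs with gaps up to 542 bp, and 95.4% of them had an input-list row under each peak. Their summits lay a median of 701 bp apart, against 472 bp in split peaks, and their gaps had a median of 353 bp, against 188 bp. With gaps weighted to those of the split pairs, the median spacing of the unjoined pairs was 526 bp. The fullest class of the weighted pairs was 450 to 499 bp, with 19.7% of them, against 21.8% of the split pairs. The fullest class of the split pairs was the one before, 400 to 449 bp, with 22.4% against 15.1% of the weighted pairs. At 350 to 399 bp the shares were 12.5% and 5.79%. Within 25 bp of 400 bp lay 18.2% of split and 10.7% of weighted pairs, and within 25 bp of 500 bp 18.4% and 17.4%. The maxima thus lay in neighbouring classes, with more split pairs at the shorter distances. Part of the remaining difference is fixed by the rule, because a width below 1000 bp leaves little room for wide rows. The H3-list rows of a split pair had a median summed width of 552 bp, against 705 bp in unjoined pairs of equal gap.

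How often an input-list peak ran across neighbouring H3-list peaks depended steeply on the gap between them. All input-list widths are counted here, and 16.9% of the 29714 neighbouring pairs with gaps up to 542 bp were joined. The share was 62.99% (61.5 to 64.4) for gaps below 200 bp, 29.3% (28.0 to 30.6) for 200 to 249 bp, 11.1% (10.2 to 12.1) for 250 to 299 bp and 5.12% (4.46 to 5.87) for 300 to 349 bp. At 500 to 549 bp it was 1.46% (1.09 to 1.94). Most split pairs therefore sat just past the distance at which neighbouring rows were kept apart in the H3 list. Reads were compared at equal gap but not at equal row width, which the limit of 1000 bp holds down in split peaks and not in unjoined pairs. The higher summit held a median of 25 HMGA1 reads in split peaks and 31 in unjoined pairs, and the lower summit 18 and 21 reads.

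Split input peaks were wide for their list, and the split share rose with width. Part of this rise is built in, because 2 rows of at least 187 bp and a gap of at least 151 bp need room. The widths of split peaks ran from 387 to 999 bp with a median of 815 bp (quartiles 735 and 897). Among all autosomal input-list rows the split share was 0.425% (0.318 to 0.568) at 550 to 599 bp, 3.37% (2.96 to 3.84) at 650 to 699 bp, 9.70% (8.83 to 10.7) at 750 to 799 bp and 15.1% (13.7 to 16.5) at 850 to 899 bp. The limit of 1000 bp cut through this rise and marked no step. Just inside it, at 950 to 999 bp, 313 of 1667 rows were split (18.8%, 16.97 to 20.7), and just outside it, at 1000 to 1049 bp, 277 of 1352 (20.5%, 18.4 to 22.7). The median spacing was 571 bp just inside and 599 bp just outside, in rows over exactly 2 H3-list rows, and the median fold over input was 6.35 in both. Of all 7699 rows of at least 1000 bp, 31.0% were split, and 144 of them overlapped 3 H3-list rows and 7 overlapped 4. The opposite case was rarer: 346 autosomal H3-list rows below 1000 bp overlapped 2 or more input-list rows, which is 0.134% of 258116. These shares were not matched for width, and the H3 list held 263033 rows in all against 385953 in the input list.

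**Figure D3:**
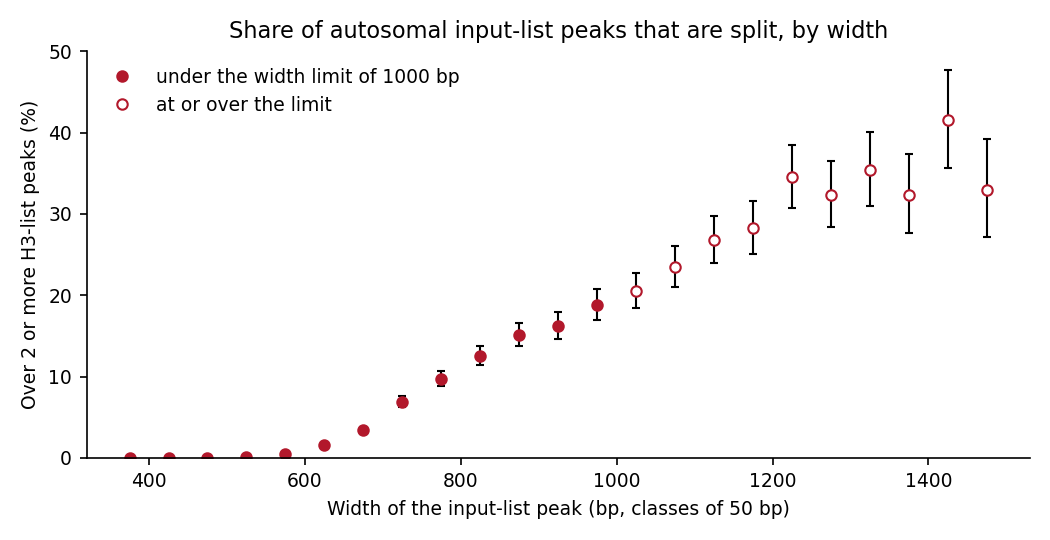
Share of autosomal input-list peaks that overlap 2 or more H3-list peaks (vertical axis, percent) by width of the input-list peak in classes of 50 bp, with 95% Wilson intervals as bars. Filled points lie under the limit of 1000 bp and open points at or over it, and the share passes from 18.8% to 20.5% across the limit.

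Spacing followed the width of the input-list peak that overlapped the pair. The median spacing was 394.5 bp in the 408 split peaks narrower than 700 bp, 463 bp in the 1144 peaks of 700 to 849 bp and 546 bp in the 1006 peaks of 850 bp or more. The overall median of 472 bp thus depends on the widths admitted. The closest summits of all lay 222 bp apart on chromosome 4 from 117323366 to 117323798, a weak peak at 3.29-fold over input whose H3-list rows held 13 and 14 reads. Spacings of 242 bp on chromosome 13 from 94333494 to 94334281 and of 266 bp on chromosome 2 from 139098014 to 139098821 followed. The widest spacing was 1476 bp, on chromosome 1 from 194635604 to 194636566, where the left H3-list row was 1196 bp wide and reached beyond the input-list peak of 963 bp. The next widest were 1248 bp on chromosome 1 from 212748497 to 212749480 and 1198 bp on chromosome 9 from 11554767 to 11555468. In these wide cases an H3-list summit lay outside the input-list peak, which happened in 34 of the 2558. Both H3-list rows were wholly inside in 2105 (82.3%).

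The H3-list peaks of a pair were often similar in height and showed no preferred side. The higher summit held 1.29 times the HMGA1 reads of the lower one at the median (quartiles 1.12 and 1.57), with a highest ratio of 3.56. The counts lay within 1.5 times of each other in 71.2% of pairs (69.4 to 72.9) and over 2 times apart in 6.53% (5.63 to 7.55). The left summit had more reads in 1230 pairs, the right one in 1220, and 108 pairs were level. The row with more reads had a median width of 289 bp and a median fold over H3 of 5.74, while the row with fewer reads had 234.5 bp and 4.42. The lower summit had a median of 18 HMGA1 reads. No summit called over H3 held fewer than 11 reads, while summits called over input went down to 8. Whether these lowest counts bear on the splitting was not tested. Together the H3-list rows covered a median of 69.1% of the input-list peak. The lone H3-list row of single peaks of equal width covered 89.2% of its input-list peak and was 684 bp wide at the median. Part of this difference in cover is built in, because each split peak holds an uncovered gap of at least 151 bp.

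The input-list summit fell on one of the H3-list summits and not between them. It lay within 10 bp of an H3-list summit in 2322 of the 2558 split peaks (90.8%, 89.6 to 91.8) and on the same base in 1184 (46.3%). In no split peak did it lie in the gap between the H3-list rows. Where it lay within 10 bp and the pair differed in reads, the nearer H3-list summit was the one with more reads in 2233 of 2242 cases (99.6%). It was the one with the higher fold over H3 in 89.5% of 2287 cases with unequal folds. Both lists take their summits from the same HMGA1 reads, and 114049 of 114050 summits on the same base in both lists had equal recovered reads. The empty gap and the match to the summit with more reads were therefore largely set in advance and describe the lists only. Single peaks of equal width had their summit within 10 bp of the H3-list summit in 90.9% of cases. The summit of a split peak stood farther off centre. Its distance from the middle of the peak was 59.3% of the way to the edge at the median, against 45.3% in single peaks, while the middle of the gap lay 10.6% of the way. This too was largely set in advance, because the gap near the middle of a split peak held no summit.

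Split input peaks were lower than single peaks of the same width. The rule bears on this, because each split peak holds a gap of at least 151 bp that was not called over H3. Those calls rest on the same HMGA1 reads, so the difference describes the lists only. How much of the difference the rule sets was not tested. At the summit split peaks carried 25 HMGA1 reads at the median (quartiles 21 and 30, range 12 to 128), against 28 reads in single peaks (quartiles 22 and 36). Folds over input had a median of 5.88 in split peaks (quartiles 4.89 and 7.14, range 2.04 to 15.6) and 6.35 in single peaks (quartiles 5.02 and 7.93). The highest fold of a single peak of these widths was 25.6. The −log10 q-value over input had a median of 11.7 in split peaks and 13.9 in single peaks. The ranges overlapped almost throughout, and the groups lay farther apart at the upper quartile than at the lower one. Of the split peaks, 31.6% (29.8 to 33.4) had more reads than the median of single peaks of their own width, 4.14% had as many and 64.3% fewer. For the fold over input, 40.6% (38.7 to 42.5) were above that median. A fold over input of at least 5 was reached by 1875 split peaks (73.3%, 71.6 to 74.98), by 76.3% of single peaks of equal width and by 38.9% of all autosomal rows below 1000 bp.

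**Figure D4:**
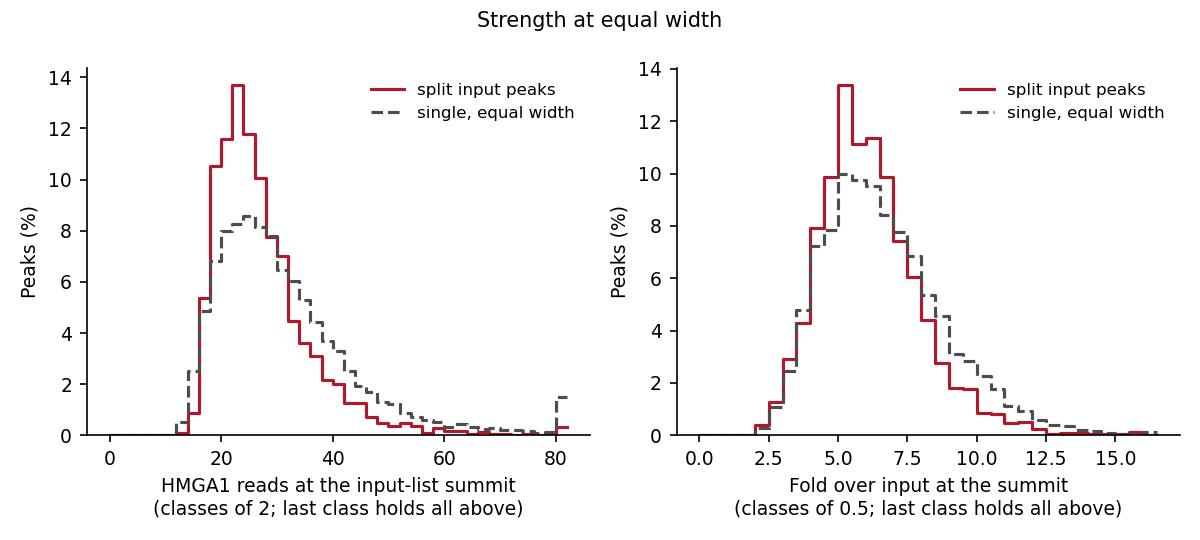
Distribution of HMGA1 reads at the input-list summit (left, classes of 2 reads) and of the fold over input (right, classes of 0.5) in percent of peaks, for split input peaks and for single peaks weighted to equal width. Split peaks have medians of 25 reads and 5.88-fold, single peaks 28 reads and 6.35-fold, and the single peaks extend farther to the right. Split peaks were chosen by calls that rest on the same HMGA1 reads.

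Split peaks had fewer reads than single peaks in each 100 bp width class from 600 bp. At 600 to 699 bp the median was 23 reads in split peaks and 26 in single peaks, at 700 to 799 bp 25 and 27, at 800 to 899 bp 25 and 28, and at 900 to 999 bp 26.5 and 30. The median folds over input in the same order were 5.39 and 6.01, 6.01 and 6.14, 5.98 and 6.36, and 6.35 and 6.77. In these 4 classes the medians thus differed by 2 to 3.5 reads. Here too the rule rests on the same HMGA1 reads.

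Control levels at the summits were close in split and single peaks. The control level is the background, in reads, that the fold sets against the HMGA1 reads at a summit. It is not a count of control reads at that base. Its floor, the lowest level found, was 2.78 reads for input and 2.19 for H3. Input was at its floor in 33.2% (31.4 to 35.0) of split peaks and 29.1% of single peaks of equal width, a difference that turned round in the 61 split peaks under 600 bp, at -16.0 percentage points (-22.8 to -5.06). A further match used the number of HMGA1 reads together with the width in classes of 50 bp, and left out 7 split peaks without a partner. The difference of split minus single peaks was then -0.518 percentage points (-2.32 to 1.33). H3 was at its floor at 49.9% (48.6 to 51.3) of the H3-list summits in split peaks and at 48.3% of those in single peaks. Both H3-list summits of a pair were at the floor in 1011 split peaks (39.5%). At the 1184 split peaks whose input-list and H3-list summits shared a base, the median control was 1.12 times its floor for input and 1.02 times for H3. The corresponding values in single peaks were 1.196 and 1.02. H3 exceeded input by more than 1.5 times, each relative to its floor, at 5.57% (4.41 to 7.03) of these split peaks and 3.93% of single peaks. Input exceeded H3 by as much at 9.63% (8.08 to 11.4) and 11.8%. The lists give control levels at summits, so the H3 level in the gap between the H3-list rows was not measured.

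Split input peaks occurred on all 22 autosomes, largely in proportion to single peaks of equal width. Chromosome 4 held the most, 309 (12.1%), followed by chromosomes 2 with 278, 5 with 223, 13 with 212, 6 with 209 and 1 with 200. Chromosome 22 held 8. As a share of all autosomal input-list rows below 1000 bp on the same chromosome, chromosome 13 was highest with 1.004% (0.878 to 1.15) and chromosome 20 lowest with 0.354% (0.207 to 0.605). Set against single peaks of equal width, 16 of the 22 autosomes had a ratio of shares whose interval included 1. Chromosome 9 was the lowest, with 0.674 times its share of single peaks (0.540 to 0.842). With H3-list rows limited to −log10 q-values from 5 upward its ratio was 0.785, and the interval of 0.594 to 1.03 included 1. Chromosome 4 had a ratio of 0.928 (0.835 to 1.03), which became 0.875 (0.811 to 0.943) with a width limit of 2000 bp. Chromosomes 10 (1.31 times, 1.05 to 1.63), 11 (1.31 times, 1.09 to 1.58), 16 (1.62 times, 1.04 to 2.52), 19 (1.63 times, 1.05 to 2.51) and 22 (3.03 times, 1.54 to 5.96) had intervals above 1. These intervals count the split peaks only, and the ratios for chromosomes 22, 19 and 16 rest on 58, 185 and 221 single peaks. Of all rows below 1000 bp on chromosomes 10, 11, 16, 19 and 22, 0.555%, 0.679%, 0.422%, 0.555% and 0.523% were split. None of these shares exceeded the 0.685% of all autosomes together. Chromosome 13, highest by that share, had a ratio to single peaks of 0.991 (0.871 to 1.13).

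**Figure D5:**
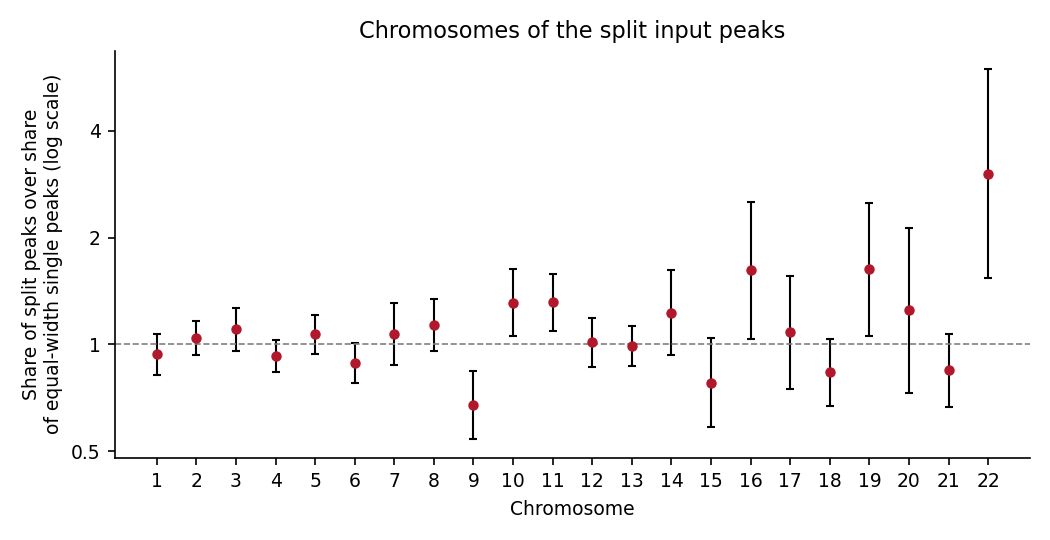
Ratio of each autosome's share of split input peaks to its share of single peaks of equal width (vertical axis, log scale), with bars from the 95% Wilson interval of the split share. Chromosome 9 lies at 0.674, chromosome 22 at 3.03 with a wide bar, and 16 of 22 bars cross the dashed line at 1.

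The low ratio of chromosome 9 moved with its windows of raised control. Single peaks of equal width on chromosome 9 had a median input control of 2.88 times the floor and 50 HMGA1 reads, whereas its 75 split peaks had 1.28 times and 28 reads. Without the 24 windows of 5 Mb whose peaks had a median input control of 2 or more times the floor, the chromosome 9 ratio was 0.967 (0.709 to 1.32). Over all autosomes these windows held 141 split peaks (5.51%, 4.69 to 6.47), against 9.19% of single peaks of equal width and 5.52% of all rows below 1000 bp. The median spacing varied little between chromosomes, from 444 bp on chromosome 11 to 488 bp on chromosome 5. On chromosome 9 it was 475 bp.

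The leading split peak of each autosome shows how far their strength ranged. Outside the 10 highest, the chromosome 4 leader from 26307971 to 26308754 was 13.8-fold over input with H3-list summits of 22 and 52 reads at 458 bp. The chromosome 6 leader from 106737409 to 106738390 was 11.9-fold with 35 and 54 reads at 616 bp. On chromosome 3 from 182273697 to 182274642 the fold was 11.5, with 45 and 27 reads at 458 bp. Leaders on chromosomes 7, 10, 11, 14, 15, 16, 17, 18 and 22 were between 7.10-fold and 11.2-fold over input. Chromosome 20 stood apart. Its leader from 29638015 to 29638813 had the most HMGA1 reads of any split peak, 128, but over an input control of 16.6 times the floor, so that the fold over input was 2.73. Both of its H3-list summits, with 128 and 90 reads, also lay over a raised H3 control, at 11.4 and 9.60 times the floor.

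The nearest other split peak lay a median of 194091 bp away, and 114 split peaks (4.46%, 3.72 to 5.33) had another within 10000 bp. No matching distance was computed for an equal number of other rows, so whether split peaks cluster was not tested. Other input-list rows, which are far more numerous, were closer, at a median of 934.5 bp from edge to edge, against 848 bp for single peaks of equal width. Another input-list row lay within 1000 bp of 51.95% (50.02 to 53.9) of split peaks and 55.0% of single peaks. In 31 split peaks (1.21%) one of the H3-list rows also reached into another input-list row.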

How the data were processed

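HMGA1 peaks were called with MACS2 on hg19, per the submitters' processing notes, against H3 and against input. For the MACS2 version, the aligner and read filtering, the entry is: not given in the sources used here. Each row of the deposited lists gives an interval, a summit, a fold (ratio over the control), p-values and q-values as −log10, and a score of 10 times the −log10 q-value. Folds, p-values and scores are the authors' own.

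HMGA1 reads and control levels at summits were recovered as the whole-number pileup matching the printed −log10 p-value within 0.001, with 1 added to both terms of the fold. This succeeded for 385953 of 385953 input-list rows and, with HMGA1 reads multiplied by 0.787, for 263031 of 263033 H3-list rows. That factor gives the relative depth of the H3 library, and total depth is unknown. On simulated data, 100% of 19884 unscaled and 19749 scaled peaks were recovered.

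Regions named are the 10 split peaks of highest score, the 5 with most H3-list rows (all had 2, so ties went by score), the 3 widest and 3 narrowest spacings, and each autosome's leader. The members and lists were chosen with earlier results of these data known. With 1 library per antibody no test was possible; intervals are Wilson 95% for shares and binomial order-statistic 95% for medians. Alternatives changed q-value thresholds, overlap, width limit, matching and windows. Coordinates are 1-based. The tools were scipy 1.17.1, numpy 2.4.6, matplotlib 3.10.9 and pandas 2.3.3 in Python 3.11.15.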

Additional observations from a re-analysis of the deposited data

How the results depend on the processing

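No paired analysis was possible because each antibody has 1 library, and leaving out a replicate was not possible. Of 65 alternative values, 42 stayed within the 95% counting interval of the reported value or, for the number of split peaks, within 1.5 times of it. With H3-list rows limited to −log10 q-values from 5 upward, 1384 peaks were split, 45.4% exceeded the fold and 36.1% the reads of the median single peak of equal width, and input was at its floor 6.39 percentage points more often in split than in single peaks, against 4.003 as reported. A width limit of 600 bp left 61 split peaks, with a spacing of 361 bp, shares of 21.3% and 24.6%, a floor difference of -16.0 points, 88.5% of summits within 10 bp, and ratios of 1.33 for chromosome 9 and 1.38 for chromosome 4, against 0.928 for chromosome 4 as reported. A limit of 2000 bp gave 4809 split peaks, 537 bp and 6.95 points. Without windows of raised control 33.7% exceeded the reads, and the ratios were 0.967 and 1.12. Without width matching the shares were 66.1% and 57.9%, so split peaks were then the higher ones, and chromosome 4, set against all rows, had 1.17. Matching reads together with width in classes of 50 bp turned the floor difference to -0.518 points. Within 50 bp, 98.98% of summits coincided. What caused these changes was not tested.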
